A study of Mus musculus with 4 samples.

Results

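RNA from pull-downs of tagged ribosomes was examined here for 39 genes that encode very large proteins. They run from the spectraplakins Macf1 and Dst to the BEACH domain protein Lyst. The genes were listed by name for the size of their products, roughly 2000 residues or more, by a rule that uses no measured value, although earlier results of these data were known when the list was made. All 39 matched 1 row each of the 55471 Ensembl genes in the deposited tables, and all 39 were among the 15816 genes that passed the filter on low counts. In the GENCODE M21 annotation, their longest coding sequences ran from 2549 residues (Mtor) to 8799 (Syne1), with a median of 3966, against 469 over all tested genes with a coding sequence. The list is a selection: 375 tested genes had a coding sequence of 2000 residues or more, so 336 of them are not in it.

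Very large proteins serve as linkers, scaffolds and multi-step enzymes. Spectraplakins, nesprins and dystrophins tie actin, microtubules, membranes and the nuclear envelope to one another, and giant ubiquitin ligases carry substrate-binding and catalytic parts on 1 chain. A ribosome needs minutes to travel along so long a message, which carries many ribosomes at a time. In a pull-down of tagged ribosomes, such messages are therefore recovered through any of many ribosomes on them.

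The data are raw counts from 4 pull-downs, 2 from mice on cuprizone and 2 from mock mice, all of genotype GFAP-Cre+/- Rpl22HA/wt and all labelled 3 weeks, batch 1. Cuprizone is a copper chelator that causes loss of oligodendrocytes and myelin when fed. By the design text, males aged 8 to 9 weeks received 0.2% cuprizone by weight in their chow, age-matched controls ate normal food, and the corpus callosum was dissected, although the tissue label reads brain. Its collection times are 5 weeks, 5.5 weeks and 7 weeks, so the labelled 3 weeks is not among them. Both groups carry the Cre transgene and the tagged allele, so the tag marks ribosomes of whichever cells had an active GFAP promoter. The strain, and whether a library came from 1 animal or several, are not given in the labels. Library totals ran from 21209517 to 23822620 counts, and 3 counts in a library were worth 0.126 to 0.141 CPM (counts scaled to a library total of 1000000). Since nothing says how many animals stand behind a library, the p-values speak only of the spread among these 4 libraries, which may be technical.

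RefSeq promoter windows on GRCm38.p6 were available for 31 of the 39 genes, 37 windows in all. The windows of the paralogs Dst and Macf1 are shown, which had the highest fitted folds among the members with a mean of at least 5 CPM. Each run gives the 250 bases before an annotated start, 5′ to 3′, with the GC box GGGCGG or its complement CCGCCC in capitals. The first Dst window is chr1:34011345-34011594 (plus strand), the second chr1:34160010-34160259 (plus strand), and that of Macf1 is chr4:123684361-123684610 (minus strand).
Dst, first start: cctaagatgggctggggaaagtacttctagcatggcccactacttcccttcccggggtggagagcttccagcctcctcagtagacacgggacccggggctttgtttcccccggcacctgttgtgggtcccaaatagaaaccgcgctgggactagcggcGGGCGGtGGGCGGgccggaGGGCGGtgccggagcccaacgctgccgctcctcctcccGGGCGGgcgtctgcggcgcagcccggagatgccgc
Dst, second start: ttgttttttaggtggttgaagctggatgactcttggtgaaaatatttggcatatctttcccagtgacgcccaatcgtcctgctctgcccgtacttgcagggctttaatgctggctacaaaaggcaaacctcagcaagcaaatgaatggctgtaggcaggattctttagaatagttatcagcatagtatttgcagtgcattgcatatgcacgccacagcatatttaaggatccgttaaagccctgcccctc
Macf1: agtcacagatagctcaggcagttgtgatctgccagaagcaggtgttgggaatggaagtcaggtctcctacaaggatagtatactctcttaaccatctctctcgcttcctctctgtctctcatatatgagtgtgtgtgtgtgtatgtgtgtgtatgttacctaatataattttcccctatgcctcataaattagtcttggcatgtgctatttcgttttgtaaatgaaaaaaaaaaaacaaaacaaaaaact
The first Dst window held 4 GC boxes and was 68.8% G and C, whereas the second held 0 at 45.2% and that of Macf1 0 at 38.4%. The GC box was found in 25 of the 37 windows of listed genes (67.6%) and in 32.7% of all 32851 windows of that length. The latter include genes of every type and had a lower median of G and C, 52.4% against 63.6%. Whether the listed windows hold more GC boxes than their base composition gives was not tested. The table may lack other starts of these genes, and the counts are per gene and do not separate starts, exons, introns or untranslated regions.

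The question of the comparison is how the RNA recovered in the pull-downs differed between cuprizone and mock mice. No library of RNA before the pull-down was available, so how much RNA was not on tagged ribosomes was not measured. Most of the listed genes were higher on cuprizone: 34 of 39 had a positive log2 fold (cuprizone over mock), with a median of 0.40, while over all 15816 genes tested 50.1% were positive and the median was 0.00. In 26 of the 39 both cuprizone libraries lay above both mock libraries in CPM, where 25.7% of all tested genes did so. In 1, Golgb1, both lay below, where 18.9% of all tested genes did. With TMM-scaled CPM (edgeR's correction for composition) the counts were 25 and 1, against 21.9% and 22.5% of all genes. Summed over the list, the genes took 1892 and 1899 CPM in the cuprizone libraries and 1195 and 1359 CPM in the mock libraries. The ratio of the group means was 1.48, and the groups did not overlap.

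No single listed gene passed the test over all genes. EdgeR's quasi-likelihood test, adjusted over the 15816 genes, called 0 of the 39 higher (0.0316% of all genes were called) and 0 lower (0.0506%). At an unadjusted p under 0.05, 9 were higher, against 5.73% of all genes, and 0 lower, against 7.04%. The 9 were Dst, Wdfy3, Macf1, Nbea, Usp9x, Ryr2, Kmt2c, Syne1 and Herc2. DESeq2 called 4 higher (Dst, Macf1, Wdfy3 and Nbea, with 1.68% of all genes called). Dst alone was called by limma-voom (0.0695% of genes), with edgeR's bias-adjusted dispersions (0.0569%) and over genes with a mean of at least 1 CPM (0.0998%), and Dst, Macf1 and Wdfy3 with no filter (0.181%). Whether Dst, Macf1, Wdfy3 and Nbea count as changed thus differed with the test and, for the first 3, with the filter on low counts.

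**Figure D1:**
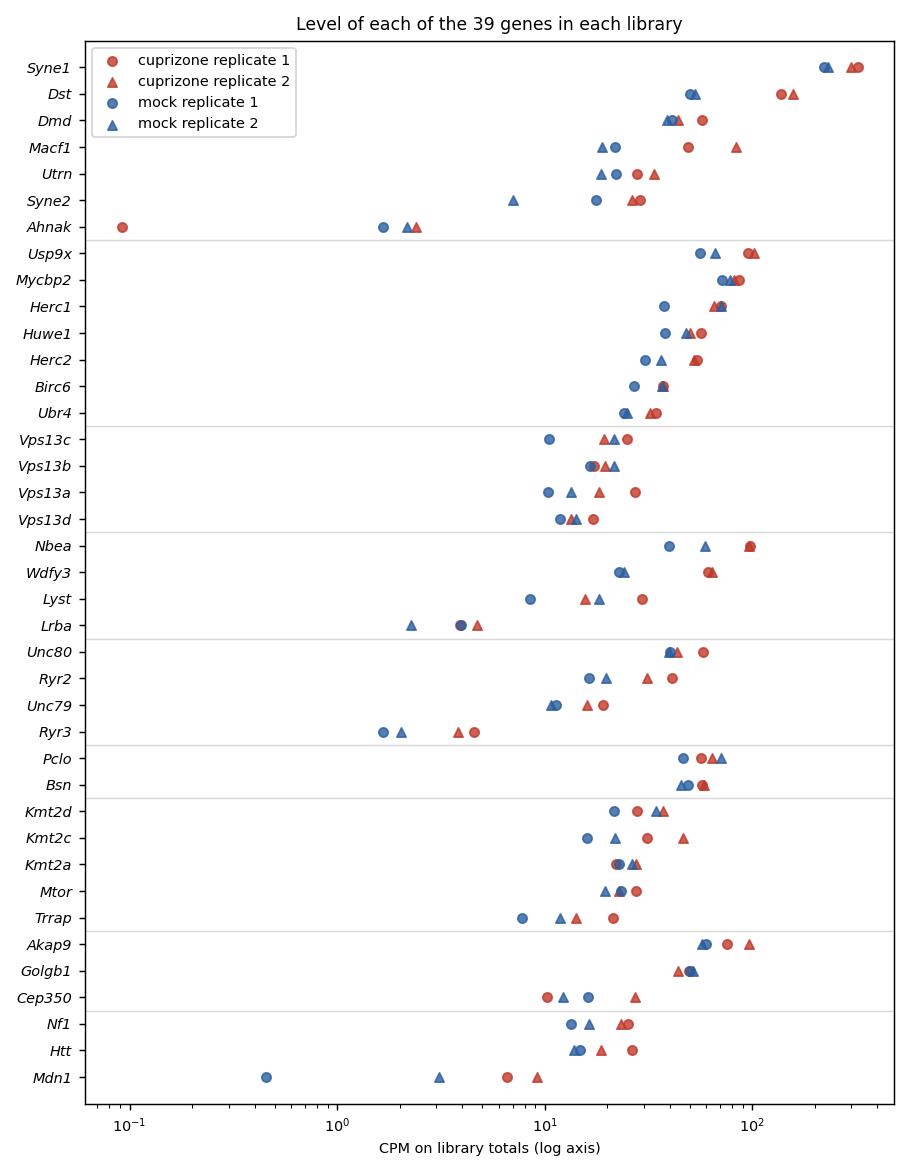
CPM on library totals (log axis) of each of the 39 genes, grouped by role and sorted by mean level, with 1 point per library (red cuprizone, blue mock; circle replicate 1, triangle replicate 2). In 26 genes both red points lie to the right of both blue ones, among them Dst, Macf1 and Wdfy3; in Golgb1 both lie to the left.

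Among the 7 cytoskeletal linkers, 6 had positive folds, in 6 the groups did not overlap, and the median log2 fold was 0.52. For this and the role groups below, both cuprizone libraries lay above both mock libraries in 25.7% of all tested genes and below in 18.9%. Differences between the role groups were not tested. Dst encodes dystonin, a spectraplakin that joins intermediate filaments and microtubules to actin and to junctions. It stood at 138 and 156 CPM in the cuprizone libraries and at 50.0 and 52.8 CPM in the mock libraries. Both cuprizone values were far above both mock values, and the log2 fold was 1.45 (SE 0.18). The edgeR adjusted p of Dst was 0.0806, and it ran from 1.3e-08 with DESeq2 to 0.352 without mock replicate 2. Macf1, the microtubule-actin crosslinking paralog of Dst, stood at 48.8 and 83.7 CPM on cuprizone and at 21.7 and 18.9 CPM in mock. Its cuprizone libraries differed from each other by more than its mock libraries did, and both lay higher than either mock library. The log2 fold of Macf1 was 1.64 (SE 0.32), and its edgeR adjusted p was 0.161, in a range of 0.000115 to 0.4 over the alternatives. Dst (ENSMUSG00000026131) lies on chromosome 1 from 33908225 to 34308661 and Macf1 (ENSMUSG00000028649) on chromosome 4 from 123349633 to 123684360, both on GRCm38.

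The nesprins link the nuclear envelope to the cytoskeleton. Syne1 was the most abundant gene of the list, at 321 and 299 CPM on cuprizone and 222 and 230 CPM in mock. The groups were apart but the difference was small, a log2 fold of 0.39 (SE 0.14, edgeR adjusted p = 0.332). Syne2 had 28.9 and 26.4 CPM on cuprizone against 17.7 and 7.03 CPM in mock, and here the 2 mock libraries were 2.52-fold apart. Its log2 fold of 1.09 (SE 0.47, edgeR adjusted p = 0.415) was 0.60 when mock replicate 2 was left out and 1.91 when mock replicate 1 was. Dystrophin (Dmd) and utrophin (Utrn) couple actin to the membrane complex that astrocytes hold at their endfeet. Their log2 folds were 0.27 (SE 0.23) and 0.52 (SE 0.29), with the cuprizone libraries above the mock libraries in both genes. For Ahnak, a scaffold of the plasma membrane, the 2 cuprizone libraries disagreed by 26.1-fold. Cuprizone replicate 1 held 2 counts (0.0916 CPM), and the other libraries had 2.39 CPM on cuprizone and 1.67 and 2.17 CPM in mock. The ratio of cuprizone replicate 1 to the mock pair was 0.0478 (95% exact interval 0.0057 to 0.178, counting error only), and cuprizone replicate 2 lay above both mock libraries.

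All 7 genes of ubiquitin enzymes had positive folds, from 0.10 to 0.62, with a median of 0.26. In 6 of them the groups did not overlap. Usp9x, a deubiquitinase, stood at 95.5 and 102 CPM on cuprizone, the highest of the 7, and at 56.2 and 66.1 CPM in mock, where Mycbp2 was higher at 71.1 and 78.1 CPM. Its log2 fold was 0.62 (SE 0.19, edgeR adjusted p = 0.27). Herc2, a HECT ligase of the DNA damage response, came next in fold at 0.60 (SE 0.23), with 53.9 and 52.2 CPM against 30.5 and 36.3 CPM. Ubr4, which recognises N-degrons, had 0.36 (SE 0.25), and the HECT ligase Huwe1 had 0.25 (SE 0.23). Mycbp2, a ligase known from axon development, and Birc6, a ligase that restrains apoptosis, had 0.10 (SE 0.18) and 0.15 (SE 0.26). In those 2 genes and in Huwe1 the gap between the groups was smaller than the distance between the mock libraries. The gap of Birc6 closed with TMM-scaled CPM. Herc1 overlapped, with 70.4 and 65.2 CPM on cuprizone and 37.4 and 70.9 CPM in mock, so that mock replicate 2 was the highest of the 4 libraries.

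The VPS13 proteins are bridges that carry lipids between organelle membranes. Only Vps13a had groups that did not overlap, with 27.3 and 18.3 CPM on cuprizone against 10.4 and 13.4 CPM in mock and a log2 fold of 0.87 (SE 0.36, edgeR adjusted p = 0.399). Vps13c had the highest mean over all 4 libraries but led in neither group, with Vps13a above it on cuprizone and Vps13b in mock. It had 24.9 and 19.2 CPM against 10.5 and 21.5 CPM. The cuprizone values of Vps13c bracketed mock replicate 2, and the log2 fold of 0.39 (SE 0.42) was -0.04 without mock replicate 1. Vps13d and Vps13b had 0.15 (SE 0.36) and -0.11 (SE 0.32). The median of the 4 was 0.27.

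BEACH domain proteins act in vesicle traffic and autophagy. All 4 had positive folds, with a median of 0.79, the highest of the role groups. Wdfy3 encodes Alfy, an adaptor that brings protein aggregates to autophagy. It had 61.1 and 64.1 CPM on cuprizone and 22.8 and 24.1 CPM in mock. The libraries of each group were close together and the groups well apart, with a log2 fold of 1.34 (SE 0.22). The edgeR adjusted p of Wdfy3 was 0.124, in a range of 0.00021 to 0.399 over the alternatives. Neurobeachin (Nbea), which sorts receptors to synapses, had 96.9 and 96.5 CPM on cuprizone against 39.8 and 59.1 CPM in mock. Its cuprizone libraries agreed closely and the mock libraries did not, and the log2 fold was 0.90 (SE 0.24, edgeR adjusted p = 0.238, range 0.0219 to 0.664). Lyst, the lysosome size regulator, overlapped: 29.4 and 15.7 CPM on cuprizone, 8.46 and 18.2 CPM in mock. Lrba, at 2.26 to 4.70 CPM, had 0.40 (SE 0.65) and overlapped as well. Wdfy3 (ENSMUSG00000043940) spans 101832956 to 102069921 on chromosome 5, and Nbea (ENSMUSG00000027799) 55625195 to 56183701 on chromosome 3.

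All 4 genes of ion channels and their partners had groups that did not overlap, with positive folds of 0.26 to 1.11 and a median of 0.76. The ryanodine receptors Ryr2 and Ryr3 release calcium from the endoplasmic reticulum. Ryr2 stood at 41.0 and 30.9 CPM on cuprizone and 16.3 and 19.8 CPM in mock, a log2 fold of 0.92 (SE 0.29, edgeR adjusted p = 0.285). Ryr3 was scarce, at 4.58 and 3.82 CPM against 1.67 and 2.03 CPM, with 1.11 (SE 0.69). Unc80 and Unc79 encode subunits of the NALCN sodium leak channel complex. Unc80 was the most abundant of the group, at 57.8 and 43.2 CPM against 40.2 and 39.8 CPM, with 0.26 (SE 0.24), and Unc79 had 0.60 (SE 0.34). The presynaptic scaffolds bassoon (Bsn) and piccolo (Pclo), which organise the active zone of neurons, showed little difference. Bsn had 57.2 and 58.6 CPM on cuprizone and 49.1 and 45.3 CPM in mock, a log2 fold of 0.22 (SE 0.20). Pclo had 56.8 and 63.6 CPM against 46.3 and 70.6 CPM, so the mock libraries enclosed both cuprizone libraries, and its log2 fold was -0.03 (SE 0.26).

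Among the 5 genes of the PIKK family and the histone methyltransferases, the median was 0.16 and the members differed. Kmt2c, an H3K4 methyltransferase that acts at enhancers, had 31.0 and 46.1 CPM on cuprizone against 15.9 and 21.8 CPM in mock, with 0.97 (SE 0.33, edgeR adjusted p = 0.311). Its relatives Kmt2d and Kmt2a overlapped. Kmt2d, highest of the 5 in its mean over all libraries and in mock but below Kmt2c on cuprizone, had 27.7 and 37.0 CPM against 21.5 and 34.3 CPM. Its log2 fold was 0.15 (SE 0.33), and Kmt2a had -0.05 (SE 0.29). Whether the folds of the 3 methyltransferases differ from one another was not tested. Trrap, a scaffold of histone acetyltransferase complexes, had 21.2 and 14.2 CPM against 7.73 and 11.8 CPM, with 0.79 (SE 0.41). The kinase Mtor overlapped at 0.16 (SE 0.29).

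Of the scaffolds of centrosome and Golgi, Akap9, an anchor of kinase A and of microtubule nucleation, had 75.1 and 96.8 CPM on cuprizone against 60.0 and 57.0 CPM in mock and a log2 fold of 0.49 (SE 0.21, edgeR adjusted p = 0.416). Giantin (Golgb1), a tether of Golgi membranes, had 49.3 and 44.0 CPM against 49.9 and 51.5 CPM. That gap was under 1 CPM, and the log2 fold was -0.19 (SE 0.21). Cep350 overlapped widely, from 10.2 to 27.2 CPM on cuprizone alone. The other 3 genes had groups that did not overlap. Nf1, the Ras inhibitor neurofibromin, had 25.3 and 23.2 CPM against 13.4 and 16.3 CPM, with 0.64 (SE 0.31, edgeR adjusted p = 0.459). Huntingtin (Htt) had 26.2 and 18.6 CPM against 14.7 and 13.8 CPM, with 0.58 (SE 0.33). Mdn1, an AAA ATPase of ribosome assembly, had the highest fitted log2 fold, 2.08, but also a large error (SE 0.93, edgeR adjusted p = 0.427). It stood at 6.59 and 9.19 CPM on cuprizone, 0.452 CPM in mock replicate 1 (10 counts) and 3.11 CPM in mock replicate 2, and its fold was 1.27 when mock replicate 1 was left out and 4.06 when mock replicate 2 was.

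**Figure D2:**
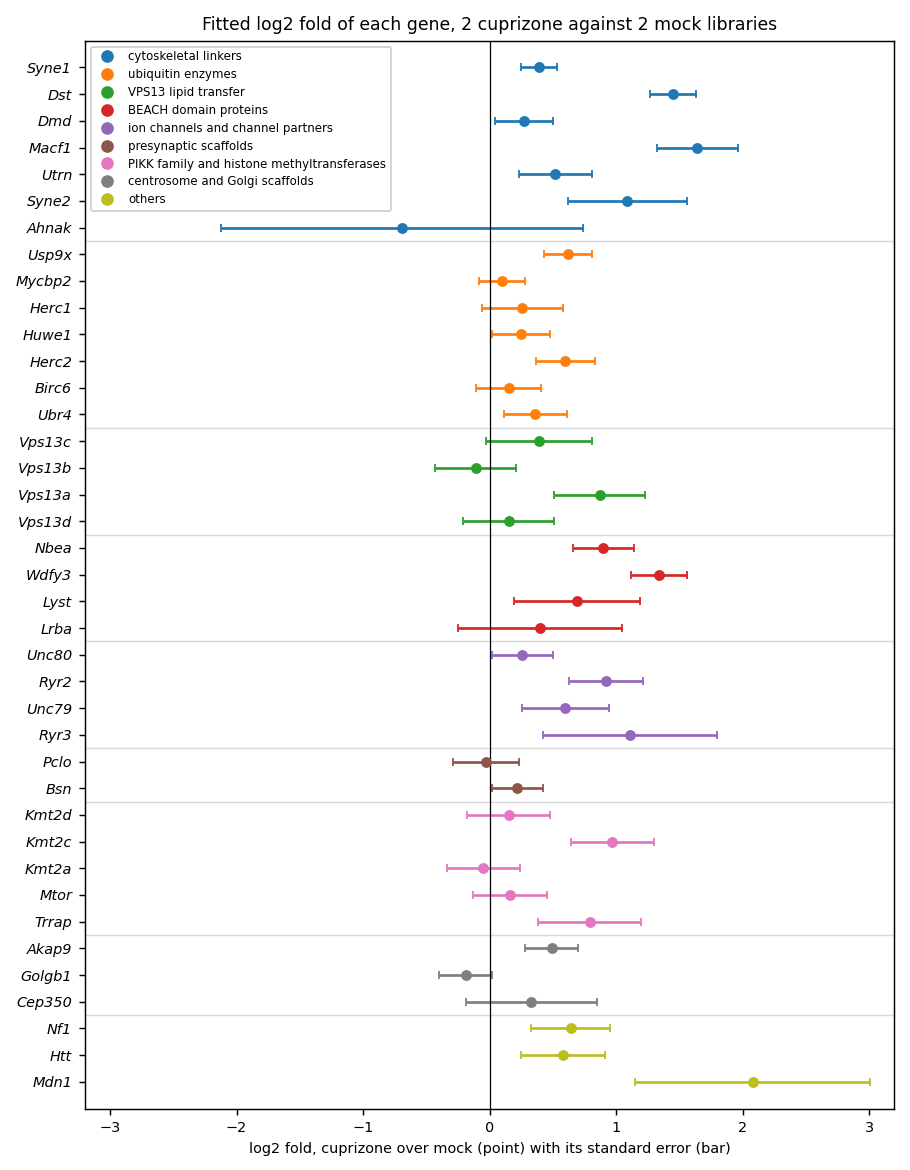
Fitted log2 fold of cuprizone over mock (points) with its standard error (bars) for each of the 39 genes, from the edgeR fit to all 4 libraries, coloured by role. The points of 34 genes lie right of 0, Dst, Macf1 and Wdfy3 farthest from it in units of their error, and the 5 left of 0 are Golgb1, Vps13b, Kmt2a, Pclo and Ahnak.

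Each cuprizone library was also set against the mock pair by itself. The lone library is then assumed to vary like the mock libraries, and the comparisons share their controls, so the values stand side by side. Cuprizone replicate 1 had positive folds in 32 of 39 genes with a median of 0.44, and cuprizone replicate 2 in 36 with a median of 0.35. The medians of all 15816 genes were -0.03 and -0.02. EdgeR called 0 members higher in replicate 1 (0.0529% of all genes called) and 0 lower (0.1%). In replicate 2 it called 2 higher, Dst and Macf1 (0.303%), and 0 lower (0.414%), with an adjusted p of 0.0371 for each. At an unadjusted p under 0.05, replicate 1 had 7 members higher (3.93% of all genes) and 1 lower, Ahnak (7.15%). Replicate 2 had 7 higher (6.79%) and 0 lower (8.22%).

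The folds of the leading genes by library show where the 2 cuprizone libraries differ. Dst had 1.34 (SE 0.23) in replicate 1 and 1.54 (SE 0.22) in replicate 2, Wdfy3 1.30 (SE 0.30) and 1.39 (SE 0.29), and Nbea 0.89 (SE 0.29) and 0.90 (SE 0.30). In these genes each library gave nearly the same value. Macf1 had 1.19 (SE 0.32) and 1.98 (SE 0.28), Kmt2c 0.64 (SE 0.38) and 1.23 (SE 0.35), and Akap9 0.28 (SE 0.25) and 0.67 (SE 0.24), all larger in replicate 2. The order was the other way in Vps13a, at 1.12 (SE 0.42) and 0.56 (SE 0.45), in Lyst, at 1.07 (SE 0.50) and 0.17 (SE 0.56), and in Htt, at 0.80 (SE 0.39) and 0.31 (SE 0.42). Cep350 changed sign, from -0.57 (SE 0.49) to 0.87 (SE 0.41). In all, 31 genes were positive in both, 2 (Golgb1 and Vps13b) negative in both, and 6 differed in sign. The 6 were Ahnak, Cep350, Vps13d, Pclo, Kmt2a and Kmt2d.

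**Figure D3:**
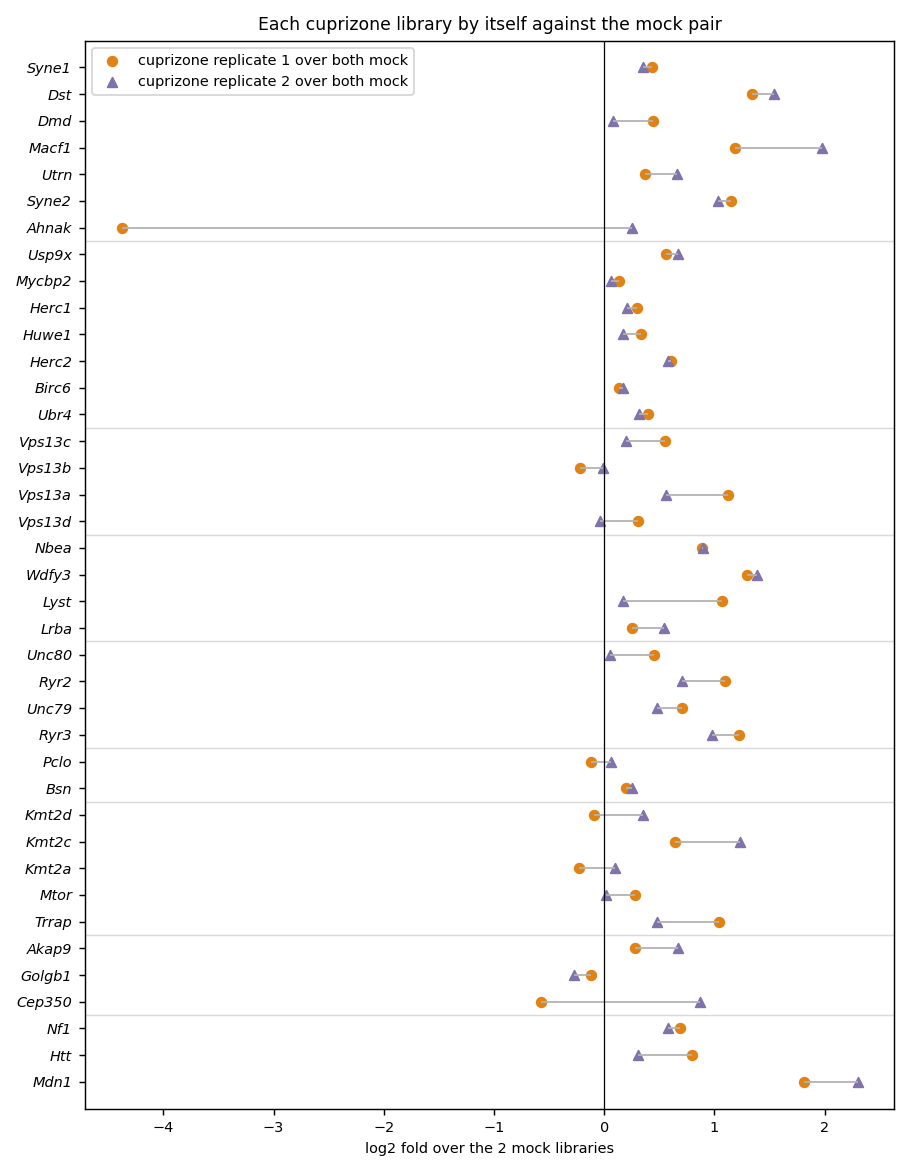
Log2 fold of cuprizone replicate 1 (orange circles) and of cuprizone replicate 2 (purple triangles), each over the 2 mock libraries, for the 39 genes, with a grey line between the values of a gene. The values of Dst, Wdfy3 and Nbea nearly coincide, Cep350 lies on both sides of 0, and the value of Ahnak in replicate 1 rests on 2 counts.

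The libraries of a group also differed among themselves in these genes. On log2(CPM + 0.5), mock replicate 2 was above mock replicate 1 in 27 of 39 genes, with a median difference of 0.22, against 0.25 in the other large-protein genes described further on and 0.01 over all tested genes. Cuprizone replicate 2 was above cuprizone replicate 1 in 17 of 39, with a median difference of -0.09, against -0.07 in the other large-protein genes and 0.00 over all genes. The higher library exceeded the lower by over 1.5-fold within the mock pair in 9 genes and within the cuprizone pair in 4. In most of the listed genes mock replicate 1 was thus the lower mock library, by about the size of the smaller folds between the groups. The list's median fold was 0.48 without mock replicate 1 and 0.54 without mock replicate 2.

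Per kilobase of merged exons, which corrects for gene length but counts exons of isoforms that may not be used, Syne1 led the list in both groups, at 7.66 CPM per kb in cuprizone and 5.57 in mock libraries. The order below it differed between the groups. On cuprizone it was Usp9x at 6.55, Mycbp2 at 4.36, Wdfy3 at 4.08, Akap9 at 4.03 and Golgb1 at 3.93, and in mock Golgb1 at 4.28, Usp9x at 4.06 and Mycbp2 at 3.88. In mock the libraries of Usp9x (3.74 and 4.39) overlapped those of Golgb1 (4.21 and 4.34) and of Mycbp2 (3.69 and 4.06). On cuprizone those of Akap9 (3.52 and 4.54) enclosed those of Wdfy3 (3.98 and 4.18) and Mycbp2 (4.49 and 4.23). Wdfy3 stood at 1.53 in mock, well below Golgb1. Dst stood at 3.57 on cuprizone and 1.25 in mock, and Macf1 at 2.11 and 0.646 CPM per kb. At the low end were Ahnak, Ryr3, Lrba and Mdn1, all under 0.4 CPM per kb in both groups, the 4 genes with a mean under 5 CPM.

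Genes for other very large proteins were compared next, from a list of 94 names that holds none of the 39. Of its 90 tested genes, 61 had positive folds, the median was 0.37, and both cuprizone libraries lay above both mock libraries in 41 (45.6%) and below in 14 (15.6%). EdgeR called 2 of them higher, the spectrins Sptan1 and Sptbn1 of the membrane skeleton, and 0 lower. Sptan1 stood at 863 and 1000 CPM on cuprizone and 109 and 110 CPM in mock, a log2 fold of 3.02 (SE 0.16, edgeR adjusted p = 0.00528). Sptbn1 had 541 and 554 CPM against 161 and 124 CPM, with 1.87 (SE 0.18, edgeR adjusted p = 0.0392). The ankyrin Ank2 had 433 and 459 CPM against 233 and 256 CPM, with 0.80 (SE 0.14, edgeR adjusted p = 0.133). Whether the 39 differ from these genes was not tested, and the medians of 0.40 and 0.37 were closer than the spread between replicates.

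Over all tested genes the median fold went with the length of the coding sequence. It was -0.09 in 7365 genes under 500 residues, 0.11 in 4398 genes of 500 to under 1000, 0.27 in 1575 genes of 1000 to under 2000, and 0.33 in the 336 unlisted genes of 2000 or more. Both cuprizone libraries exceeded both mock libraries in 19.7%, 32.0%, 40.0% and 45.8% of these classes, and the listed genes stood at 66.7%. The reverse was seen in 22.5%, 15.9%, 13.2% and 12.8%, and in 2.56% of the listed genes. With at least 5 CPM on average the medians were -0.09, 0.12, 0.29 and 0.40, and 0.39 in the 35 listed genes that remained. At that level both cuprizone libraries exceeded both mock libraries in 55.4% of the unlisted genes of 2000 residues or more and in 68.6% of the listed genes. They lay below both in 12.9% and 2.86%. Spearman's rho of coding length and log2 fold was 0.211 across 13713 genes, which share the 4 libraries and are no independent replicates. Within the list it was 0.0621 (n = 39), although the highest folds, those of Mdn1, Macf1 and Dst, belong to members with 5589, 7355 and 7717 residues. Near the limit of 2000 residues, where no listed gene lies, the median was 0.39 in 49 genes of 2000 to under 2100 residues and 0.35 in 68 genes of 1900 to under 2000.

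**Figure D4:**
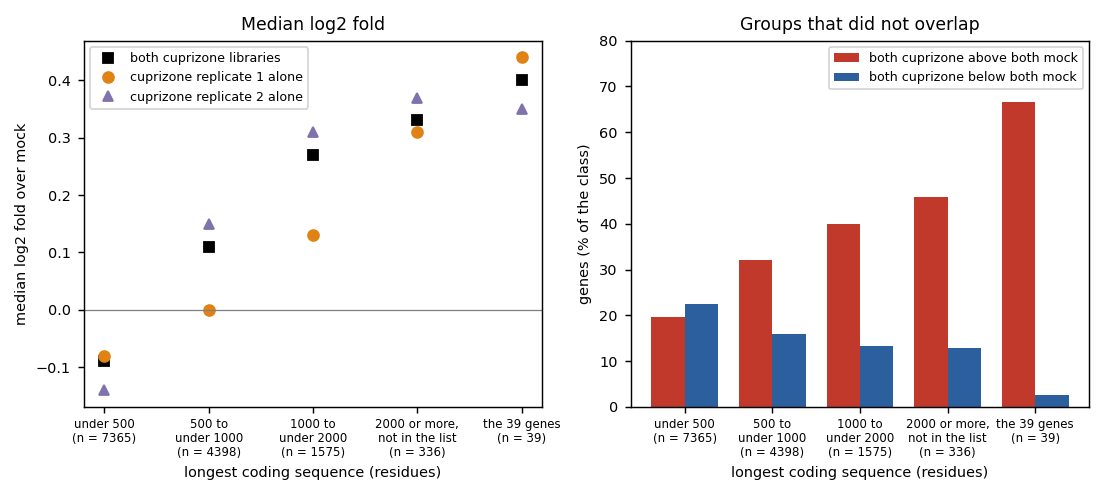
Left, median log2 fold over mock in classes of coding length (residues) for both cuprizone libraries (squares) and each by itself (circles, triangles); right, percent of each class with both cuprizone libraries above (red) or below (blue) both mock libraries. The median of both libraries goes from -0.09 in the shortest class to 0.33 in the longest unlisted class and 0.40 in the 39 genes, and the red share from 19.7% to 66.7%.

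The listed genes also span long stretches of genome, a median of 188 kb against 21.9 kb over all tested genes. Among unlisted genes with at least 5 CPM, those under 500 residues had a median fold of -0.09 when the gene spanned under 100 kb (5411 genes) and of -0.08 when it spanned 100 kb or more (413 genes). Those of 2000 residues or more had 0.44 (111 genes) and 0.31 (122 genes). The medians of the short-protein classes were thus alike at either span, and among the long-protein classes the shorter span had the higher median. At an edgeR unadjusted p under 0.05, 2.85% of the short-protein genes spanning under 100 kb were higher and 9.7% lower. For those spanning 100 kb or more, the shares were 6.3% and 12.6%. The part of gene span in the folds of the listed genes was not tested. Within the list, Spearman's rho of gene span and log2 fold was 0.358 (n = 39). By merged exon length, with classes cut at 2, 5 and 10 kb, the medians were -0.15, -0.02, 0.09 and 0.17.

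Other RNAs also differed between these libraries. RNAs held in the nucleus (Malat1, Neat1, Meg3, Miat, Snhg11 and Rian) took 937.8 to 944.4 CPM in the cuprizone and 208.9 to 228.6 CPM in the mock libraries, with positive folds in all 6 and groups that did not overlap in 4. The ratio of their group means was 4.3. For comparison with this and later lists, both cuprizone libraries exceeded both mock libraries in 25.7% of all tested genes and lay below in 18.9%. EdgeR called Snhg11, Meg3 and Malat1 higher, with log2 folds of 3.13, 2.27 and 1.96 (edgeR adjusted p = 0.0071, 0.0176 and 0.029). With Sptan1 and Sptbn1, these were the 5 genes called higher among all 15816 tested. Neat1, Miat and Rian were not called. Astrocyte markers took 5997 to 6805 CPM against 9487 to 9880 CPM. Of the 13 markers, 11 had negative folds, 6 were lower in both cuprizone libraries than in both mock libraries, and none was at 0 in any library. Gfap, whose promoter drives Cre, had 385 and 451 CPM on cuprizone and 963 and 870 CPM in mock, a log2 fold of -1.20 (SE 0.15, edgeR adjusted p = 0.0838). Neuron markers took 15860 to 15930 CPM against 13730 to 14480 CPM, with 8 of 14 folds positive, and in single markers the groups were apart upward in 6 and downward in 4. Most of these sums, and most of the difference between them, was Snap25, at 9900 and 10000 CPM on cuprizone and 8290 and 8300 CPM in mock. The part of these RNAs in the folds of the listed genes was not tested.

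Oligodendrocyte markers took 9922 to 13120 CPM on cuprizone and 12660 to 14700 CPM in mock, with 2 of 9 folds positive. The 4 markers of oligodendrocyte precursors took 283.7 to 445.2 CPM against 283.7 to 434.9 CPM, most of it Olig1. Their signs differed: Pdgfra and Cspg4 were lower in both cuprizone libraries than in both mock libraries (log2 folds of -1.21 and -1.93), Olig2 was higher in both (0.90), and the median of the 4 was -0.59. The 9 microglia markers took 17.88 to 20.11 CPM against 29.26 to 42.43 CPM, with Cx3cr1 and Aif1 at 0 in both cuprizone libraries, and the 6 endothelial markers 0.4122 to 7.052 CPM against 2.578 to 3.819 CPM, with Cdh5 at 0 in all 4. The listed genes are used by many cell types, so their folds cannot be assigned to astrocytes. Fewer cells of a type, less RNA per cell and another share of RNA not on tagged ribosomes cannot be told apart.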

How the data were processed

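Tagged ribosomes were pulled down from 2 cuprizone and 2 mock samples and the recovered RNA was sequenced. The authors deposited raw counts per Ensembl gene, 1 table per library. Per the submitters' processing notes, FastQC 0.11.9, STAR 2.5.4b and featureCounts 1.6.0 were used with GRCm38 (mm10); for annotation release, strand setting and multi-mapping reads, the settings were not given in the sources used here. Symbols and coordinates came from GENCODE M21 on GRCm38, with 55144 of 55471 ids matched. In that annotation 19 of the 39 genes share exon bases with another gene, at most 5.68% of their exons; the partner held more counts for Vps13b (Cox6c), Ubr4 (Emc1) and Ryr3 (Aven), whose values are therefore uncertain.

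CPM was computed on library totals. EdgeR 4.0.16 in R 4.3.3 (filterByExpr, TMM, robust glmQLFit with the installed default dispersions, glmQLFTest, 2-sided) was fitted across all genes and adjusted by Benjamini-Hochberg, threshold 0.05, with no block; each SE is the absolute log2 fold divided by the square root of F. DESeq2 1.42.0 and limma 3.58.1 (voom) were alternatives. The fits were also run on drawn counts with known changes, as a check of the code, using dispersions from these libraries. The set changes were larger than the folds of most listed genes, so power at the latter was not tested. Replicates differed by more than sampling noise (chi-square per degree of freedom 56.5 in cuprizone, 35.1 in mock, over genes with at least 20 counts). Intervals and the 3-count floor cover counting error only.

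The members, role groups, marker lists and the list of other large proteins were chosen with earlier results of these data known. All 39 members may be named; values in each library were due for members called, for those with at least 5 CPM, a log2 fold of at least 1 in size and groups that did not overlap, for the most abundant of each role group and for both extremes of fold; other library values were added after they were seen. No protein table was used: coding lengths are the longest coding sequence in GENCODE, a choice made after the files were seen, as were the classes by gene span.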

Additional observations from a re-analysis of the deposited data

How the results depend on the processing

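Over 13 alternatives the median log2 fold of the 39 genes stayed positive. It was 0.40 in the analysis reported and 0.46 with the replicate block. Leaving out 1 library gave 0.35 to 0.54, the highest without mock replicate 2. The count of listed genes called higher was 0 in the analysis reported and with RLE, upper-quartile and library-total scaling, and 0 with the replicate block. It was 1 with limma-voom, with bias-adjusted dispersions and over genes averaging 1 CPM or more, 3 with no filter and 4 with DESeq2. Leaving out 1 library gave 0 to 2, and the 2 came without cuprizone replicate 1. Over all genes the block called 10 genes in place of 13; the labels do not say that a number pairs animals, and the deviations of same-numbered libraries from their group means had a correlation of 0.00936 across 15816 genes. Of 195 values of 15 single genes under alternatives, 174 kept direction and side of the threshold, 12 passed it and 9 changed sign. Sign changes were in Pclo (0.04 with library totals, 0.01 with limma-voom, 0.00 with the replicate block, and -0.30 to 0.33 with 1 library left out), Vps13c (-0.04 to 1.02 with 1 library left out), Kmt2d (-0.15 to 0.54) and Ahnak (-4.38 to 0.25). The median of the other large proteins was 0.37, and 0.17 for genes with merged exons of 10 kb or more. The cause of these shifts was not tested. With 2 libraries a group, differences of the size seen in most of the listed genes could not be told from the spread between libraries, and at under 5 CPM counting adds to it.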
